A study of Homo sapiens with 6 samples.

Results

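The genes described are 9 that carry or hold back the death signal of a cell: the receptors TNFRSF10A, TNFRSF10B and FAS, the initiator caspases CASP8 and CASP9, the scaffold APAF1, and the inhibitors XIAP, BIRC2 and CFLAR. They were chosen by function, with earlier results of these data known, and all 9 were listed among the 11048 genes of the deposited expression values. RNA was sequenced from MM1.S, an established human multiple myeloma cell line, after 6 h with DMSO as vehicle control, with 3 µM CCF642 or with 3 µM CCF642-34. Each group held 2 libraries, all from this single line, which carries no other genotype or treatment in the labels. CCF642 is a small-molecule inhibitor of protein disulfide isomerases, the enzymes that form disulfide bonds in the endoplasmic reticulum, and CCF642-34 is its analogue. Nothing in the labels says that the 2 libraries of a group came from separate cultures. The p-values therefore rest on the spread between these libraries, estimated largely over all genes, which may be technical.

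In the receptor route to apoptosis, the ligands TRAIL and FASLG bind TNFRSF10A, TNFRSF10B or FAS, whose cytoplasmic death domains gather the adaptor FADD and the proenzyme made from CASP8. CFLAR encodes c-FLIP, which enters the same complex and, depending on its isoform and amount, limits the activation of that caspase. In the mitochondrial route, cytochrome c binds APAF1 and the resulting apoptosome activates the product of CASP9. XIAP binds and blocks caspases directly, while the BIRC2 product cIAP1 is a ubiquitin ligase of receptor complexes. Plasma cells make large amounts of secreted protein, and TNFRSF10B is known as a gene whose mRNA increases when the endoplasmic reticulum is stressed. Transcript levels, which are what was measured here, do not give protein levels, cleavage or caspase activity.

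Libraries held between 20567313 and 28459677 reads, recovered from the deposited CPM, which are the reads of a gene scaled to a common library total, and the CCF642-34 libraries were the deepest. The 6 plasma cell markers were all listed, with a summed level between 3303 and 3570 CPM over the 6 libraries. That sum joins markers that moved apart: by limma, SDC1 fell with CCF642 and CCF642-34 (log2 fold change -1.67 and -1.12), as did TNFRSF17 (-1.06 and -0.81), while IRF4 rose (0.90 and 1.11). Of 8 markers of other cell types, CD3D, CD14, LYZ and PPBP were not listed. The remaining CD3E, HBB, EPCAM and COL1A1 summed to 7.48 to 7.52 CPM with DMSO, 16.3 to 17.2 CPM with CCF642 and 11.9 to 12.1 CPM with CCF642-34. With CCF642 only COL1A1 of these 4 was called, at a mean of 1.29 ± 0.288 CPM in the vehicle libraries and 9.76 ± 1.09 CPM in the CCF642 libraries (SD, n = 2), and with CCF642-34 COL1A1 and HBB were called. The part of these markers in the results below was not tested.

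TNFRSF10B, which encodes the TRAIL receptor DR5, showed the largest change of the 9 genes. Its level was 23.4 and 25.8 CPM in the DMSO libraries, 87.4 and 77.1 CPM in the CCF642 libraries, and 89.4 and 85.1 CPM in the CCF642-34 libraries. Every treated library therefore lay above both vehicle libraries, while the libraries of the 2 compounds overlapped. Relative to vehicle control the transcript rose 3.55-fold with CCF642 (log2 fold change 1.83, SE 0.069, adjusted p = 1.0e-27) and 3.66-fold with CCF642-34 (log2 fold change 1.87, SE 0.069, adjusted p = 6.7e-28), by limma with Benjamini-Hochberg adjustment over all 11048 genes. It was the only one of the 9 genes to reach a 2-fold change, a criterion met with an unadjusted p under 0.05 by 6.49% of all genes with CCF642 and by 3.87% with CCF642-34. In order of log2 fold change it stood 99th from the highest of 11048 genes with CCF642 and 58th with CCF642-34. The gene lies at chr8:23020133-23069179 on the minus strand (GRCh38, GENCODE), and 1.30% of its exonic bases overlap exons of RHOBTB2 on the opposite strand, a gene whose mean level was 35.7 CPM in vehicle libraries, 19.5 CPM after CCF642 and 24.3 CPM after CCF642-34.

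The genes whose log2 values over the 6 libraries lay closest to those of TNFRSF10B, each centred on its own mean, were DDIT4, TES and GPT2, at Euclidean distances of 0.133, 0.171 and 0.186. DDIT4, which encodes an inhibitor of mTOR signalling, had log2 fold changes of 1.76 with CCF642 and 1.92 with CCF642-34. TES had values of 1.77 and 1.76. GPT2, which encodes the mitochondrial alanine aminotransferase, had values of 1.93 and 1.97. These genes were picked out for this likeness, so their changes are a description.

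The other TRAIL receptor, TNFRSF10A or DR4, did not follow TNFRSF10B. Its level was 32.2 and 33.1 CPM with DMSO, 26.4 and 25.8 CPM with CCF642, and 32.3 and 31.1 CPM with CCF642-34. The CCF642 libraries were the lowest, and those of CCF642-34 overlapped the vehicle libraries. The log2 fold change was -0.18 with CCF642 (95% interval -0.35 to -0.015, adjusted p = 0.052) and 0.05 with CCF642-34 (95% interval -0.12 to 0.21, adjusted p = 0.65), so neither was called by limma at an adjusted p under 0.05. The CCF642 value lay at the edge of the threshold. It was -0.31 with an adjusted p of 0.0010 by limma with library size as the only scaling, and was also called with a pseudocount of 0.1, over genes with a mean of at least 5 CPM and by a gene-wise linear model. TNFRSF10A lies at chr8:23190452-23225126 on the minus strand (GRCh38), where AC100861.1 overlaps 9.01% and TNFRSF10A-AS1 7.59% of its exonic bases on the opposite strand, neither of them among the listed genes.

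FAS, the receptor of FAS ligand, showed the widest relative spread of the receptors between vehicle libraries. It was measured at 12.0 and 15.4 CPM with DMSO, 12.6 and 14.9 CPM with CCF642, and 14.8 and 16.0 CPM with CCF642-34. All 3 groups overlapped on this scale, though after the scaling used for the test the CCF642-34 libraries lay above those of DMSO. The log2 fold change of 0.13 with CCF642 (95% interval -0.10 to 0.37, adjusted p = 0.33) and of 0.25 with CCF642-34 (95% interval 0.0093 to 0.49, adjusted p = 0.070) did not pass the limma test. The second value depended on 1 vehicle library: without DMSO replicate 2 it was 0.41 with an adjusted p of 0.015, and without DMSO replicate 1 it was 0.08. It was also called without either CCF642 library, or with only the 2 groups compared in the fit (adjusted p = 0.040 by limma). FAS lies at chr10:88990582-89015785 on the plus strand (GRCh38), and 8.94% of its exonic bases overlap those of ACTA2 on the opposite strand, which was not among the listed genes.

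**Figure D1:**
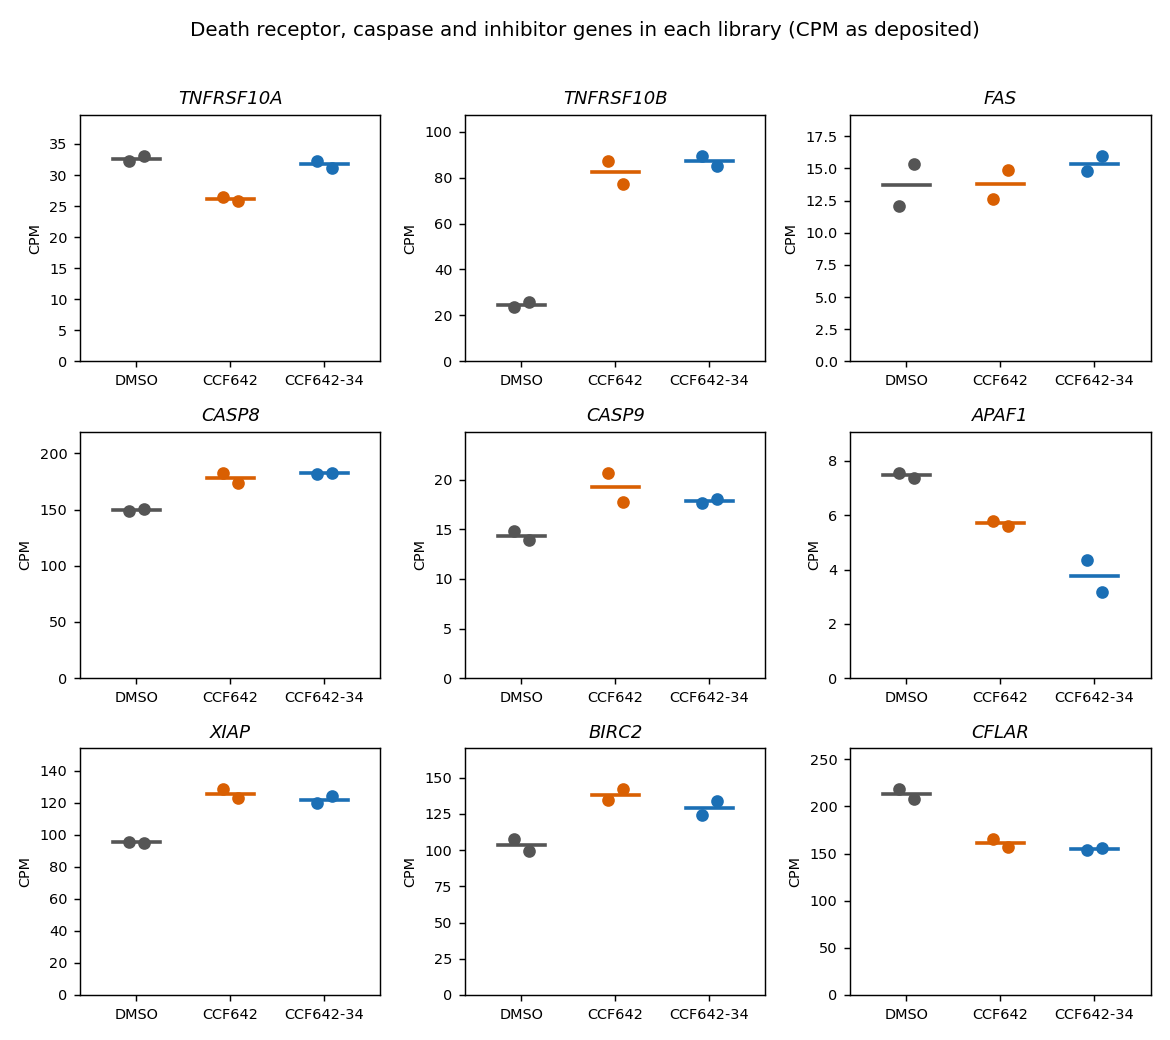
Level of each of the 9 genes in every library, in CPM on a linear axis from 0, with the 3 treatments along the horizontal axis. Points are libraries and horizontal lines are the means of 2 libraries. TNFRSF10B goes from 23.4 and 25.8 CPM with DMSO to at least 77.1 CPM in every treated library. APAF1 is lowest with CCF642-34, and FAS overlaps between all groups on this axis, which is without the scaling used for the test.

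Both of the initiator caspases chosen here were higher with both compounds, by less than the 2-fold criterion. Other caspases, described below, moved in both directions or were not called, so this pair does not stand for caspases as a class. CASP8 is an initiator of the receptor route. Its level was 148.8 and 151.0 CPM with DMSO, 182.1 and 173.3 CPM with CCF642, and 181.9 and 182.9 CPM with CCF642-34. No treated library overlapped a vehicle library. The increase was 1.30-fold with CCF642 (log2 fold change 0.38, SE 0.047, adjusted p = 1.3e-09) and 1.29-fold with CCF642-34 (log2 fold change 0.37, SE 0.047, adjusted p = 2.7e-09).

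CASP9, the initiator of the apoptosome, was measured at 14.8 and 13.9 CPM with DMSO, 20.7 and 17.7 CPM with CCF642, and 17.6 and 18.1 CPM with CCF642-34. Each treated library exceeded both vehicle libraries. The libraries of the 2 compounds overlapped on this scale, though not after the scaling used for the test. The log2 fold change was 0.52 with CCF642 (SE 0.105, adjusted p = 3.0e-05) and 0.38 with CCF642-34 (SE 0.105, adjusted p = 0.0017). When no variance was shared between genes, the CCF642-34 value no longer passed, with an adjusted p of 0.060 by the gene-wise linear model. Exons of CELA2B on the opposite strand overlap 2.01% of the exonic bases of CASP9, and CELA2B was not among the listed genes.

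APAF1, the apoptosome scaffold, moved against CASP9. It was measured at 7.57 and 7.38 CPM with DMSO, 5.79 and 5.62 CPM with CCF642, and 4.36 and 3.17 CPM with CCF642-34. The 3 groups did not overlap. With CCF642-34 the transcript fell (log2 fold change -0.77, SE 0.157, adjusted p = 4.7e-05) and stood 394th from the lowest of 11048 genes. The log2(CPM + 1) scale understates the change of a gene this low. On recovered reads the log2 fold change was -0.90 by edgeR and -0.91 by DESeq2. With CCF642 the log2 fold change was -0.22 (95% interval -0.54 to 0.094, adjusted p = 0.22), which was not called. These values rest on between 88 and 174 reads per library, and 9.48% of the exonic bases of APAF1 (chr12:98645141-98735433, plus strand, GRCh38) overlap those of ANKS1B on the opposite strand, which was not among the listed genes.

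A promoter window of CASP8 is shown. It was picked because the transcript rose with both compounds and the window holds a match to the AP-1 motif TGANTCA, here in capitals. These 150 bases lie at chr2:201260336-201260485 on the plus strand (GRCh38.p14, RefSeq), inside the 250 bases before an annotated start site. The match begins 61 bases before that site. This stretch lies inside the gene, downstream of the gene's annotated start at chr2:201233443. Which start site these cells use was not measured.
CASP8: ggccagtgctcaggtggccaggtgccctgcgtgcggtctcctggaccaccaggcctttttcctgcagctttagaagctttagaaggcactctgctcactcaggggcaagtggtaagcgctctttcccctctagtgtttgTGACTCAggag

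Among the inhibitors, the IAP genes rose and CFLAR fell. XIAP was at 95.7 and 95.1 CPM with DMSO, 128.4 and 123.0 CPM with CCF642, and 119.7 and 124.4 CPM with CCF642-34. Treated and vehicle libraries did not overlap. Those of the 2 compounds overlapped on this scale, though not after the scaling used for the test. The log2 fold change was 0.53 with CCF642 (SE 0.052, adjusted p = 2.0e-12) and 0.44 with CCF642-34 (SE 0.052, adjusted p = 4.5e-10). XIAP has the annotated processed copies XIAPP1, XIAPP2 and XIAPP3, and how reads shared with them were counted is not given in the sources used here, so its level is uncertain to that extent.

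BIRC2 was at 107.9 and 99.3 CPM with DMSO, 134.9 and 141.9 CPM with CCF642, and 124.2 and 133.9 CPM with CCF642-34. All treated libraries exceeded both vehicle libraries, and the CCF642 libraries were the highest. The log2 fold change was 0.55 with CCF642 (SE 0.053, adjusted p = 1.5e-12) and 0.40 with CCF642-34 (SE 0.053, adjusted p = 8.8e-09).

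CFLAR was the only one of the 3 inhibitors that fell. It was measured at 218.0 and 207.6 CPM with DMSO, 165.0 and 157.3 CPM with CCF642, and 153.5 and 155.9 CPM with CCF642-34. Every treated library lay below both vehicle libraries. The log2 fold change was -0.27 with CCF642 (SE 0.047, adjusted p = 3.1e-06) and -0.37 with CCF642-34 (SE 0.047, adjusted p = 3.6e-09), which correspond to 0.83 and 0.78 times the vehicle level. CFLAR lies at chr2:201116104-201176687 and CASP8 at chr2:201233443-201287711, both on the plus strand (GRCh38), with 56.8 kb between them. CASP10, which lies in that gap on the same strand, had log2 fold changes of 0.04 with CCF642 and -0.03 after CCF642-34 and was not called. The values are sums over all isoforms, and GENCODE lists 18 protein-coding transcripts of CFLAR, so the long and short forms of c-FLIP cannot be told apart. On the opposite strand, exons of IMPDH1P10 overlap 6.6% and those of CFLAR-AS1 3.4% of the exonic bases of CFLAR. On the same strand, AC007283.1 overlaps 2.0%. None of these was among the listed genes.

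The promoter windows of CFLAR and BIRC2 are shown because these inhibitors moved in opposite directions and different motifs were found in them. The capitals mark TGANTCA (AP-1) in CFLAR at chr2:201132581-201132730, 160 bases before a start site. They mark TGACGTCA, the cyclic AMP response element, in BIRC2 at chr11:102347065-102347214, 7 bases before a start site. Both stretches are on the plus strand (GRCh38.p14, RefSeq). The CFLAR stretch lies inside the gene, downstream of the gene's annotated start at chr2:201116104. Which start sites these cells use was not measured.
CFLAR: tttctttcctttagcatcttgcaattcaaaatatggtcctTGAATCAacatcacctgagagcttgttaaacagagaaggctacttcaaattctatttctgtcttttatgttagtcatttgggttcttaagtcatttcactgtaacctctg
BIRC2: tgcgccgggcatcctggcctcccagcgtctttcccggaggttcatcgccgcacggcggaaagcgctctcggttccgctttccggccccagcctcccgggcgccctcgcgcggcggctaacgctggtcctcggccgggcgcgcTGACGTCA

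RefSeq windows of 300 bases, from 250 before to 50 after a start site, were held for 7 of the 9 genes, 18 windows in all, and some of these overlap each other. On both strands, TGANTCA was found in 4 of the 18, from CASP8, CFLAR and FAS, against 7.71% of all 35116 windows. TGACGTCA was found in 2 overlapping windows of BIRC2, which hold the same site, against 1.85% of all windows. An NF-kB motif, rich in G at its start and ending in TTCC, was found in 1 window, of CFLAR, against 0.41%, and TGATGNAA, the core of the composite site of ATF and C/EBP factors, in 0 of 18, against 3.62%. CFLAR, CASP8 and FAS, which share the AP-1 letters, moved down, up and without a call. Binding to these letters was not measured, and their part in the changes was not tested.

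Counted over the 9 genes, 5 rose and 1 fell with CCF642 by limma at an adjusted p under 0.05, beside 31.8% and 31.3% of all genes tested. With CCF642-34, 5 rose and 2 fell, beside 29.7% and 27.9% of all genes. The genes that rose were TNFRSF10B, CASP8, CASP9, XIAP and BIRC2 with either compound, those that fell were CFLAR with either and APAF1 with CCF642-34, and the 2 comparisons share their DMSO libraries. The median log2 fold change of the 9 genes was 0.38 with CCF642 and 0.37 with CCF642-34, against -0.0066 and 0.0067 over all genes. With library size as the only scaling, 5 of the 9 rose and 2 fell with either compound, while 22.9% of all genes rose and 42.9% fell with CCF642, and 22.6% rose and 36.0% fell with CCF642-34. With so large a share of all genes called in each direction, 5 of 9 in 1 direction is a description of these genes and does not set them apart from the rest.

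**Figure D2:**
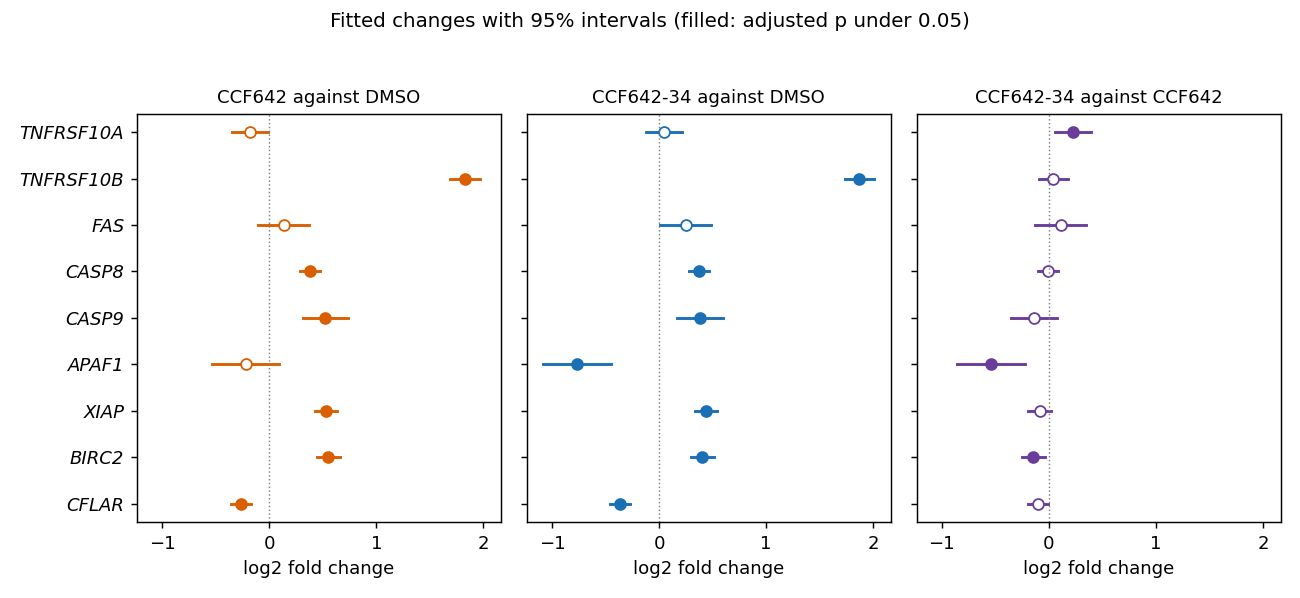
Log2 fold change of each gene in the 3 comparisons, with 95% intervals from the limma model on a shared horizontal axis. Filled points have an adjusted p under 0.05. TNFRSF10B stands at 1.83 and 1.87 against DMSO and at 0.04 between the compounds, and the intervals are widest for APAF1.

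Ratios between 2 genes of the same library do not depend on how the libraries were scaled. TNFRSF10B had 0.73 and 0.78 times the CPM of TNFRSF10A with DMSO, 3.30 and 2.99 times with CCF642, and 2.77 and 2.74 times with CCF642-34. The ratio was higher in all 4 treated libraries than in either vehicle library. CFLAR had 1.46 and 1.38 times the CPM of CASP8 with DMSO, 0.906 and 0.908 times with CCF642, and 0.844 and 0.853 times with CCF642-34. Here the ratio was lower in all 4 treated libraries than in either vehicle library.

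APAF1 had 0.51 and 0.53 times the CPM of CASP9 with DMSO, 0.28 and 0.32 times with CCF642, and 0.25 and 0.17 times with CCF642-34. BIRC2 and XIAP kept nearly the same ratio, at 1.13 and 1.04 with DMSO, 1.05 and 1.15 with CCF642, and 1.04 and 1.08 with CCF642-34, and those groups overlapped. An exact permutation test of 2 against 2 libraries cannot give a two-sided p below 0.333, and no model was fitted to the ratios, so they are given without a p. As CPM is not per length, each ratio compares libraries and not the abundance of its 2 genes.

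**Figure D3:**
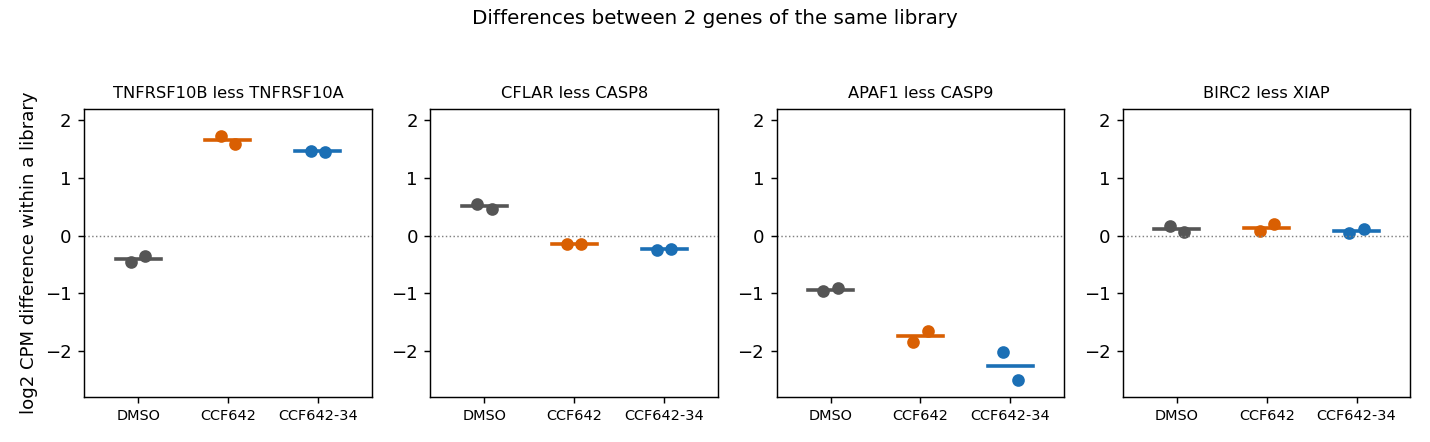
Difference of log2 CPM between 2 genes of the same library for 4 pairs, with points for libraries and lines for means of 2. TNFRSF10B less TNFRSF10A is higher in every treated library than with DMSO, CFLAR less CASP8 is lower, and BIRC2 less XIAP overlaps between all groups. The line at 0 marks equal CPM, which is not equal abundance.

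Per kilobase of merged GENCODE exons, the mean levels with DMSO were 22.9 CPM for BIRC2, 20.7 for CASP8, 11.1 for TNFRSF10A, 10.6 for XIAP, 9.45 for CFLAR, 4.78 for TNFRSF10B, 3.22 for FAS, 2.72 for CASP9 and 0.945 for APAF1. The 2 vehicle libraries of neighbours in this order did not overlap. The order depended on the length used, because the merged exons of CFLAR span 22.5 kb while its median protein-coding transcript is 1.21 kb, and over median transcript lengths CFLAR was the highest. APAF1 was the lowest on either length.

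The direct comparison asked whether the related compounds, at the same dose and time, differed in these genes, and 1 pair of compounds was compared. By limma, 1 of the 9 genes was higher and 2 were lower with CCF642-34 than with CCF642, beside 15.9% and 17.4% of all genes, and 0 of 9 met the 2-fold criterion, beside 0.308%. With library size alone 1 was higher and 1 lower, beside 21.8% and 13.5% of all genes. TNFRSF10A was higher (log2 difference 0.23, 95% interval 0.062 to 0.39, adjusted p = 0.029). APAF1 was lower (-0.54, 95% interval -0.86 to -0.23, adjusted p = 0.0059), as was BIRC2 (-0.15, 95% interval -0.25 to -0.038, adjusted p = 0.032).

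These 3 differences were less secure than the changes from vehicle. The gene-wise linear model called 0 of the 9, with 2 at an unadjusted p under 0.05, and DESeq2 called APAF1 alone, with 4 at an unadjusted p under 0.05. Without CCF642-34 replicate 2, in which APAF1 was lowest, its log2 difference was -0.36 with an adjusted p of 0.16 by limma, and TNFRSF10A also lost its call. Without CCF642-34 replicate 1, BIRC2 was at -0.094 and TNFRSF10A at 0.20, and neither was called. With library size alone BIRC2 was at -0.10 with an adjusted p of 0.14 by limma. Without CCF642 replicate 2 these 2 genes again lost their calls, at -0.10 and 0.21, while CFLAR gained 1 at -0.13.

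For the other 6 genes no difference between the compounds was called, and the intervals give its possible size. For TNFRSF10B the log2 difference was 0.04 with a 95% interval from -0.095 to 0.18, that is from 0.94 to 1.13 times, which is small beside its rise over vehicle. For CASP8 it was -0.0065 with an interval from -0.10 to 0.087. XIAP stood at -0.086 with an interval from -0.19 to 0.018, and CFLAR at -0.10 with an interval from -0.20 to -0.0076 and an adjusted p of 0.089. The intervals were wider for FAS, from -0.12 to 0.35, and for CASP9, from -0.35 to 0.073. A value that missed the threshold does not show that the compounds act alike on that gene.

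Of 38 other genes of the pathway, 30 were listed, and the ligands FASLG, TNF and LTA were among those that were not, with TNFRSF10C, TNFRSF25, CASP5, BIRC7 and XAF1. With CCF642 11 of the 30 rose and 10 fell, beside 31.8% and 31.3% of all genes, and with CCF642-34 9 rose and 6 fell, beside 29.7% and 27.9%. Their median log2 fold change was 0.05 with CCF642 and 0.03 with CCF642-34. In the direct comparison 7 were higher and 7 lower with CCF642-34, beside 15.9% and 17.4% of all genes.

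The counts by role that follow are of few genes each and are to be read against these same shares of all genes. Among ligands and other receptors, 4 of 9 were listed, and with each compound 1 rose and 1 fell. TNFSF10, which encodes TRAIL, the ligand of TNFRSF10A and TNFRSF10B, fell with CCF642 (log2 fold change -1.01) and with CCF642-34 (-0.69). Ligand and DR5 transcripts therefore moved in opposite directions in the same cells, though the TNFSF10 values rest on only 101 to 277 reads per library. TNFRSF1A, a TNF receptor, rose by 0.54 and 0.45 on the log2 scale. Among 7 adaptors and complex partners, 4 rose and 1 fell with either compound. FADD, the adaptor between the TRAIL and FAS receptors and CASP8, rose by 0.71 on the log2 scale with CCF642 and by 1.10 with CCF642-34. PEA15, whose product binds FADD through its death effector domain, rose by 1.17 and 0.88, and TRAF2, the partner of cIAP1, had values of -0.22 and -0.49 and fell with both.

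Of 6 listed caspases examined beside CASP8 and CASP9, 2 rose and 3 fell with CCF642, and 2 rose and 2 fell with CCF642-34, where 31.8% and 31.3%, and 29.7% and 27.9%, of all genes did so. CASP4, an inflammatory caspase gene, rose by 0.46 and 0.41 on the log2 scale, whereas CASP6 had log2 fold changes of -0.70 and -0.27 and CASP2 of -0.17 and -0.44, all called. Of 5 mitochondrial factors, 1 rose and 1 fell with CCF642 and 2 rose with CCF642-34. DIABLO, whose product relieves caspases of IAP binding, rose by 0.64 and 0.40, alongside XIAP and BIRC2. ENDOG, a mitochondrial nuclease, had values of -0.48, which was called, and 0.12, which was not.

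Of the 4 listed IAP genes beyond XIAP and BIRC2, 2 rose and 1 fell with CCF642, and 0 rose and 1 fell with CCF642-34. BIRC3, the close relative of BIRC2 that encodes cIAP2, rose with CCF642 (log2 fold change 1.08, adjusted p = 3.2e-25 by limma) and was at -0.07 with CCF642-34 (adjusted p = 0.20 by limma). The direct difference was -1.16 (adjusted p = 5.2e-25 by limma), the only one of the 30 past 2-fold between the compounds. BIRC5, which encodes survivin, a protein of dividing cells, had log2 fold changes of -1.01 and -0.82 and fell with both. Of 4 caspase substrates, 1 rose and 3 fell with CCF642, and 0 rose and 1 fell with CCF642-34. PARP1 had values of -0.59 and -0.41, both called, and ROCK1 had values of 0.21, which was called, and 0.06, which was not.

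**Figure D4:**
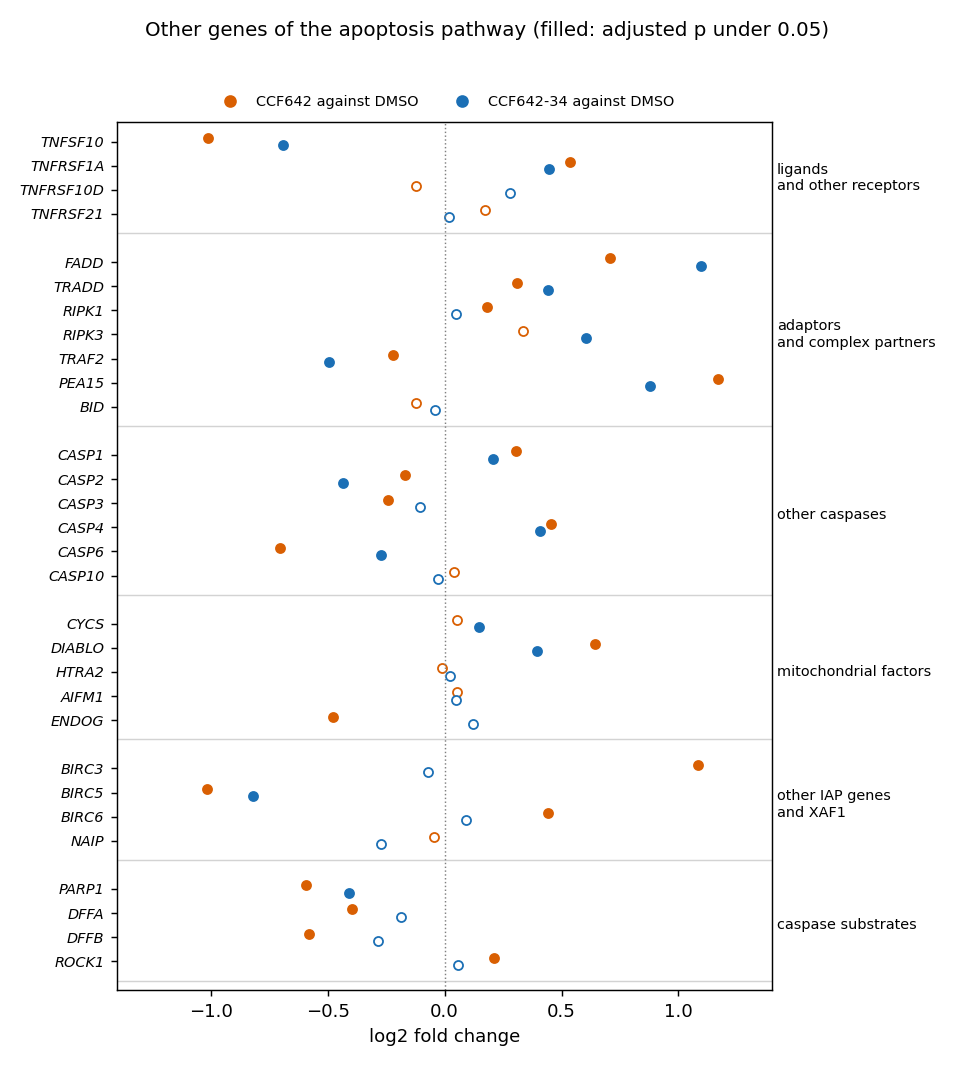
Log2 fold change against DMSO of the 30 listed pathway genes, grouped by role, for CCF642 and CCF642-34. Filled points have an adjusted p under 0.05. FADD lies at 0.71 and 1.10, TNFSF10 at -1.01 and -0.69, and BIRC3 at 1.08 with CCF642 and -0.07 with CCF642-34.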

How the data were processed

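Messenger RNA enriched with oligo(dT) from MM1.S cells was sequenced in 6 libraries, 2 per group. The authors deposited CPM per gene symbol, a unit read from the values, and the submitters' processing notes name STAR, edgeR 3.24.3, limma 3.38.3 and hg19 without roles. The counting tool, its annotation and its use of strand are not given in the sources used here, so reads of overlapping genes on opposite strands cannot be told apart. No gene stayed under 1.50 CPM in every library, so rarer genes had been left out. Annotation and promoters came from GRCh38, not from hg19, and were used only for gene positions, lengths and sequences, while files were joined by symbol.

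CPM were scaled by TMM (edgeR 4.0.16) and tested with limma 3.58.1 (R 4.3.3) on log2(CPM + 1), a scale that understates changes of low genes. The 3 groups shared a fit with 3 residual and 42.9 prior degrees of freedom, and tests were two-sided with Benjamini-Hochberg adjustment over 11048 genes, called at an adjusted p under 0.05. The 2-fold criterion with an unadjusted p under 0.05 is that of the study. Levels in the text are CPM as deposited, without TMM. Whole reads, recovered within 0.01 of an integer, served DESeq2 1.42.0, edgeR and voom as alternatives. Scripts were tested on simulated data. All 9 genes were named, with the gene of largest called change each way per role in the pathway list and the 3 genes most like TNFRSF10B. A gene of the pathway list is not reported here, and the counts of that list leave it out. Genes, lists and rules were chosen with earlier results of these data known.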

Additional observations from a re-analysis of the deposited data

How the results depend on the processing

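Of 459 values of the 9 genes under alternatives, 431 kept their direction and side of the threshold, 13 lost a call, 9 gained 1 and 6 turned direction. Those 6 lay near 0 and were not called. Not every alternative could turn a direction. The gene-wise model, the fit of only the 2 groups compared and the replicate block kept the main log2 fold changes, so there only a call could change. Leaving out a library of the group not compared hardly moved the values. With library size alone, under which the median gene stood at -0.131 for CCF642 and at -0.078 for CCF642-34, TNFRSF10A with CCF642-34 was -0.041 and CASP8 between the compounds 0.038. Leaving out each library in turn gave -0.030 to 0.30 for FAS with CCF642 and, between the compounds, -0.042 to 0.13 for TNFRSF10B, -0.0047 to 0.23 for FAS and -0.038 to 0.025 for CASP8. The number of the 9 genes called between the compounds was 3, against 1 by DESeq2's Wald test, 0 by the gene-wise linear model and 1 to 3 leaving out each library. The gene-wise model called 4108 genes with CCF642-34, against 6362, and 739 between the compounds, against 3685. With a pseudocount of 4, the shift of TNFRSF10B less TNFRSF10A was 1.87 with CCF642 and 1.71 with CCF642-34, against 2.06 and 1.87, and that of APAF1 less CASP9 was -0.58 and -0.82, against -0.81 and -1.33. Leaving out libraries gave -0.69 to -0.60 and -0.79 to -0.70 for CFLAR less CASP8 with the 2 compounds, and -1.58 to -1.08 for APAF1 less CASP9 with CCF642-34. Deviations of same-numbered libraries correlated at -0.027, -0.058 and 0.070 over 10311 genes, so no strong effect shared by number was seen. These values cannot show whether same-numbered libraries were prepared together. With the replicate number as a block, 6, 7 and 3 of the 9 genes were called, as without it. With 2 libraries per group, APAF1 at 88 to 174 reads and FAS at 259 to 444 reads are the least precise.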
